A study of Bos taurus and Sus scrofa with 6 samples.

Results

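The cells described here were selected from dissociated cattle testes as macrophages, by a rule on 9 genes. A cell was kept when AIF1, CD68, CSF1R, CD163, C1QA, C1QB, C1QC, CD14 and MRC1 together had at least 3 unique molecular identifiers (UMIs, counts of captured RNA molecules) over at least 3 of the genes, including a C1q gene. It was dropped when at least 2 genes had a UMI in 1 of 3 sets, which were CD3E, CD3D and NKG7 for lymphocytes, FSHR, AMH and CLDN11 for Sertoli cells, and CYP17A1, CYP11A1 and STAR for Leydig cells. The rule kept 79, 352 and 546 cells in cattle 1, 2 and 3, which are 977 of 18504 called cattle cells and of 27961 called cells in the whole series. The study profiled testicular cells of prepubertal animals by droplet single-cell RNA-sequencing. The 3 cattle were Holsteins of 4.5 months and the 3 pigs were of mixed breed and 3 months old, no treatment is given for any animal, and the animal numbers are names without an order. About 8000 live cells per sample of testes collected by castration were loaded, giving 1 library each. The study's methods state that 3 separate males of each species were sampled, so each library was counted as 1 animal. The cattle libraries held 5805223, 27409347 and 53325608 UMIs, and the median called cell held 796, 1717 and 4546.5 UMIs, so that the library of cattle 1 was the shallowest and that of cattle 3 the deepest.

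Macrophages are the main resident immune cells of the testis, where they lie in the interstitium beside Leydig cells and around the tubules. They sense, engulf and degrade dead cells and particles, make the C1q proteins that start the classical complement pathway, and present peptides on MHC class II. They also store and export iron from degraded heme, and secrete chemokines that draw in other leukocytes. AIF1 encodes an actin-binding protein of macrophages, CSF1R the receptor for their growth factor, and CD163 and MRC1 scavenger and mannose receptors.

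The genes of the rule mark the selected cells by construction, and their levels are given as a description. Levels are UMIs per 1000000 UMIs of the summed cells (CPM), in the order cattle 1, 2 and 3. C1QA stood at 7296, 7675 and 2567 CPM in the selected cells and at 132, 83.9 and 128 CPM in all other called cells. CD163 stood at 88.4, 76.1 and 27.2 CPM, and had a UMI in 6.33%, 11.6% and 11.9% of the selected cells. The selected cells of cattle 3 carried less of both genes than those of the other animals.

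The selected cells were not uniform. Their median share of UMIs from the 9 selecting genes was 18.0, 13.3 and 1.88 per 1000 UMIs in cattle 1, 2 and 3, with a wide spread in each animal. TYROBP, an adaptor of activating receptors on myeloid and natural killer (NK) cells that the rule does not use, was followed along this share. In cattle 3, the 193 selected cells with a share under 1 per 1000 held 16.3 CPM of TYROBP, the 62 cells between 10 and 30 held 441 CPM, and the 31 cells at 60 or more held 781 CPM. In cattle 2, the 106 cells between 3 and 10 held 211 CPM and the 51 cells at 60 or more held 1004 CPM. The summed UMIs of 7 genes of stromal and peritubular myoid cells (TCF21, PDGFRA, COL1A1, COL3A1, DCN, ACTA2 and MYH11) ran against this from 3 per 1000 upward in cattle 2 and 3. They took 6.77 per 1000 UMIs in the 75 cells of cattle 3 with a share between 3 and 10, and 0.483 per 1000 in those at 60 or more.

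**Figure D1:**
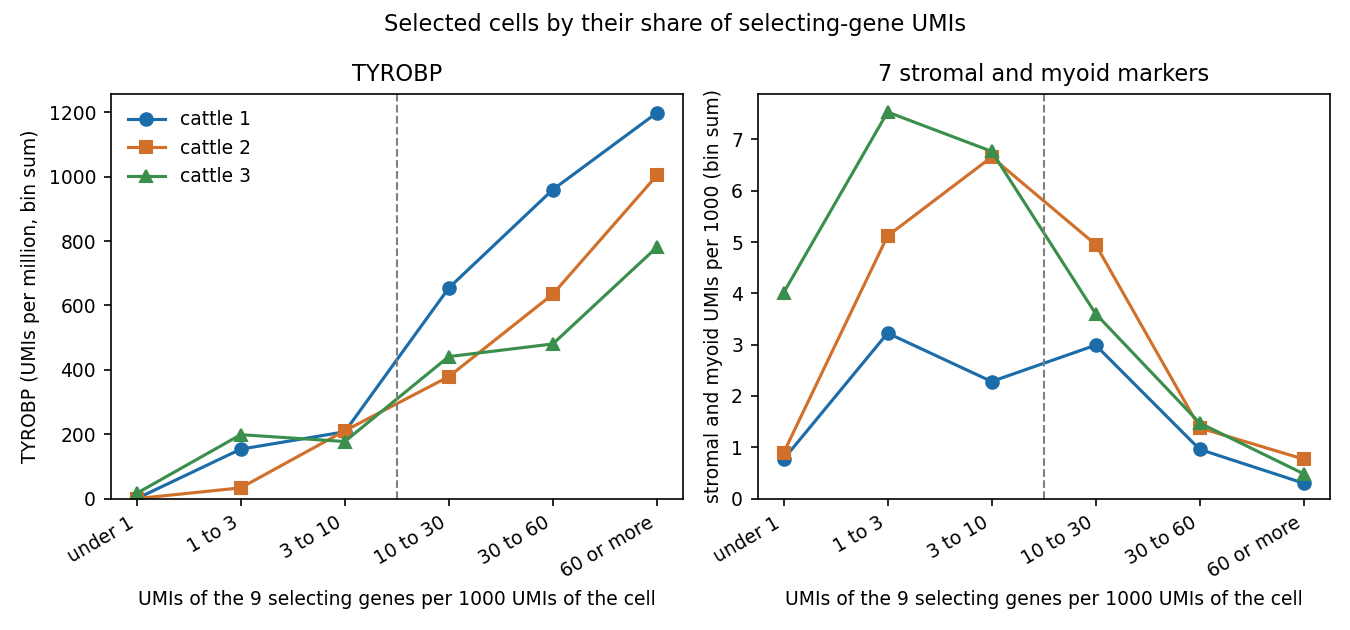
TYROBP (left, CPM) and the 7 stromal and myoid markers (right, UMIs per 1000) in selected cells of each cattle, grouped on the x axis by the UMIs of the 9 selecting genes per 1000 UMIs of the cell, with a dashed line at 10. TYROBP reached 781 to 1198 CPM at shares of 60 or more in the 3 animals, where the stromal markers were at 0.300 to 0.769 per 1000.

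The macrophage label therefore held for some of the selected cells and went against the data in others. A share of at least 10 per 1000, a limit set after these values had been seen, separated 55, 203 and 148 cells, 406 in all, which are called high-share cells. The remaining 24, 149 and 398 cells, 571 in all, are called low-share cells. Between 8 and 12 per 1000 lay 13, 28 and 22 cells, so the limit cuts through a continuous range. The low-share cells were larger libraries than the high-share cells, with median totals of 809.5, 1792 and 5163 UMIs against 587, 1242 and 3644. The share is taken over the cell's total and the rule needs at least 3 selecting UMIs, so part of this difference is set by definition. Other called cells had medians of 800, 1733 and 4541 UMIs. After each cell had been thinned to 460 UMIs, at least 2 stromal or myoid genes were seen in 20.8%, 51.0% and 48.7% of the low-share cells and in 12.7%, 19.7% and 17.6% of the high-share cells, beside 33.5%, 41.2% and 42.9% of the other called cells. The unthinned shares were 29.2%, 69.1% and 89.9% in low-share and 16.4%, 31.5% and 57.4% in high-share cells. Droplets with at most 50 UMIs, which hold free RNA, took 4.06, 1.77 and 2.23 per 1000 of their UMIs from the selecting genes. In cattle 3, 290 of the 546 selected cells (53.1%) had a share at or below that of its empty droplets, against 10 of 79 (12.7%) in cattle 1 and 12 of 352 (3.41%) in cattle 2. No doublet caller was run, and the parts of free RNA and of droplets with more than 1 cell in the low-share cells were not tested. Just inside the rule, cells with exactly 3 selecting UMIs numbered 8, 14 and 91 and held 83.0, 27.3 and 19.3 CPM of TYROBP. Just outside it, cells with 2 UMIs over 2 genes numbered 101, 192 and 763 and held 12.7, 14.7 and 2.90 CPM.

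The label markers AIF1, CSF1R, C1QA and CD163 are among the genes that set the limit, so their levels in the high-share cells are a description only. AIF1 stood at 1483, 1277 and 1667 CPM, CSF1R at 577, 566 and 665 CPM, C1QA at 12743, 14561 and 13095 CPM, and CD163 at 137, 139 and 136 CPM. Marker genes of other cell types were also measured in the high-share sums. Of 5 B cell markers 2 had a UMI in each animal, and MS4A1, CD79B and PAX5 were at 0. The granulocyte markers summed to 0, 3.47 and 60.8 CPM, led by S100A12. The endothelial markers summed to 27.5, 20.8 and 19.7 CPM, led by PECAM1. T and NK markers summed to 1428, 687 and 540 CPM, led by NKG7 at 687, 441 and 458 CPM, with CD3D at 0 in cattle 1 and 3. In all selected cells that sum was 1061, 492 and 168 CPM, beside 1013, 1012 and 1002 CPM in the other called cells. The sum of the other called cells was led by CCL5, at 648, 704 and 585 CPM. NKG7 alone stood at 167, 128 and 146 CPM there, below its level in the high-share cells of each animal. In all selected cells NKG7 stood at 442, 257 and 100 CPM, which in cattle 3 was below the other called cells. Dendritic cell markers summed to 522, 253 and 237 CPM, of which IRF8 gave 275, 201 and 194 CPM, while CLEC9A, XCR1 and FCER1A were at 0 in all 3 animals. Stromal and myoid markers summed to 2032, 3109 and 2239 CPM in high-share cells, 2005, 4436 and 4561 CPM in all selected cells and 3846, 5146 and 5477 CPM in the other called cells, led by ACTA2 in cattle 1 and 3 and by DCN in cattle 2. Leydig cell markers summed to 6014, 1530 and 2065 CPM in high-share cells and 49874, 6301 and 8721 CPM in other called cells, most of it INSL3, and in empty droplets to 114315, 26814 and 18149 CPM. Sertoli cell markers summed to 522, 236 and 212 CPM in high-share cells, led by INHA and with WT1 at 0. Germ cell markers summed to 82.4, 13.9 and 52.6 CPM in high-share cells, and in low-share cells to 668, 196 and 604 CPM beside 220.1, 145 and 189.7 CPM in other called cells, led by UCHL1. The part of these other cell types in the comparisons was not tested.

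The first comparison asked which genes the selected cells carried at higher or lower levels than all other called cells of the same animals. Macrophage genes that the rule had not used were among the higher genes, in phagocytic receptors, complement, chemokines, antigen presentation and heme breakdown. At an adjusted p under 0.05 in the edgeR quasi-likelihood test (Benjamini-Hochberg adjustment), 262 of 14278 tested genes were higher (1.83%) and 49 were lower (0.343%), with 1600 genes at an unadjusted p under 0.05. With the animal as a block, 616 were higher (4.31%) and 513 lower (3.59%). For high-share cells alone, 722 of 14109 genes were higher (5.12%) and 293 lower (2.08%), or 1190 (8.43%) and 1228 (8.7%) with the animal as a block. Of the 262 higher genes, 257 were also higher in the high-share cells, and these make up 35.6% of the 722. Of the 49 lower genes, 31 were. Cattle 2 weighed on the first count, since 102 genes were higher without its library, 99 of them among the 262. The lower genes rested on cattle 2 and 3, since 18 of the 49 were also called without cattle 2 and 7 without cattle 3. In this assay UMIs lie near the 3′ end, so values of different genes are not ordered here. The rule dropped cells with at least 2 lymphocyte, Sertoli or Leydig genes and left them among the other called cells, so part of a lower level of such genes is set by the rule. All other called cells are a mixture of Sertoli, Leydig, myoid, germ and other cells, and selecting genes and tested genes were read in the same cells, so a difference says that a gene went with the selecting genes in 3 animals.

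**Figure D2:**
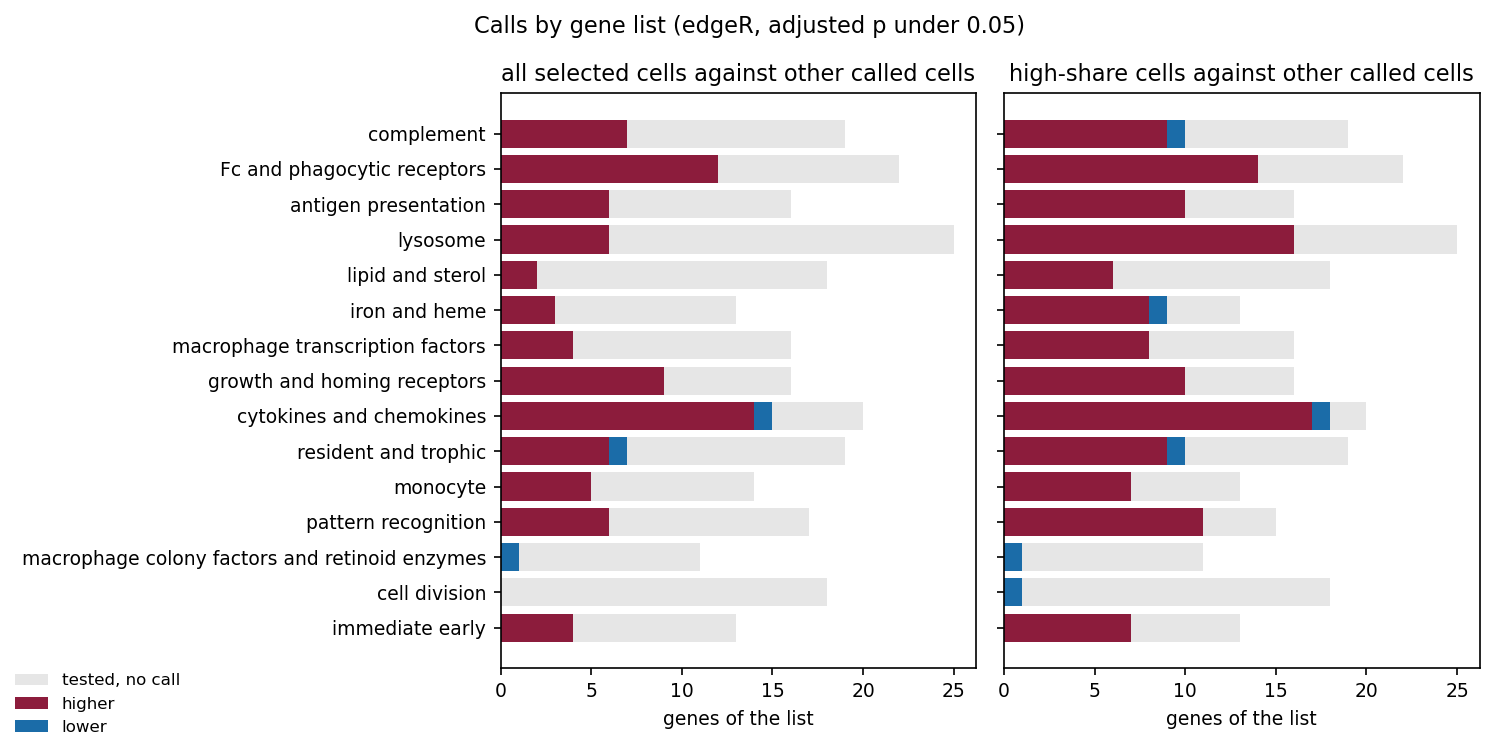
Number of genes of each of 15 lists (y axis) that were higher (red), lower (blue) or tested without passing an adjusted p of 0.05 (grey) against other called cells, for all selected cells (left) and high-share cells (right). Cytokines and chemokines held 14 higher genes of 20 tested in all selected cells, and lysosomal genes went from 6 to 16 of 25 in the high-share cells.

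Complement genes beyond C1q were partly raised. Of 19 tested genes 7 were higher and none was lower, with a median log2 fold change of 0.89 beside 0.0041 over all tested genes. In the high-share cells 9 were higher and 1 lower, with a median of 1.91 beside −0.50 over all genes. CFD, the factor D protease that activates the alternative pathway, stood at 2727, 2443 and 720.0 CPM in the selected cells, 4586, 4462 and 3433 CPM in the high-share cells, 53.3, 28.3 and 37.5 CPM in other called cells and 475, 216 and 225 CPM in empty droplets. Every animal showed the gene above both backgrounds. The log2 fold change was 5.35 ± 0.53 (SE, n = 3 cattle; edgeR adjusted p = 0.000104), and 6.63 ± 0.38 for the high-share cells. CFP, the properdin that stabilises the same pathway, stood at 339, 185 and 94.7 CPM against 6.45, 4.04 and 5.58 CPM, a log2 fold change of 4.89 ± 0.47. The complement receptors VSIG4, CR2 and C3AR1 were higher as well. VSIG4, an inhibitory receptor of resident macrophages, stood at 206, 170.5 and 53.8 CPM against 2.34, 1.23 and 3.15 CPM. CR2, best known from B cells and follicular dendritic cells, reached 82.4, 329.6 and 186 CPM in the high-share cells against 0.293, 1.01 and 0.662 CPM. SERPING1, the C1 inhibitor, was the gene that was lower in high-share cells, at a mean of 426 ± 12.9 CPM against 835 ± 69.3 CPM (SD, n = 3). C1R and C1S, the proteases that bind C1q, did not pass the test, with log2 fold changes of −0.39 ± 0.33 and −0.60 ± 0.35 (edgeR adjusted p = 0.711 and 0.561), and C1S passed with the animal as a block (edgeR adjusted p = 0.0451).

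Fc and phagocytic receptors were the list with the largest median change of the 15, 3.25 on the log2 scale, and 12 of 22 tested genes were higher and none lower. With the animal as a block 14 were higher and 1 lower. In high-share cells 14 were higher, with a median of 4.76. TYROBP stood at 501, 351 and 148 CPM in the selected cells, 824, 583 and 519 CPM in the high-share cells and 17.6, 8.41 and 7.28 CPM in other called cells, with no overlap between the groups (log2 fold change 4.60 ± 0.53, edgeR adjusted p = 0.000237). MSR1, a scavenger receptor for modified lipoproteins, stood at 118, 296 and 101 CPM against 1.17, 2.47 and 5.36 CPM. TIMD4, which binds phosphatidylserine on dying cells and marks long-lived resident macrophages, stood at 147, 194 and 118 CPM against 2.93, 1.85 and 7.03 CPM. All 3 animals carried both receptors above the other cells, and the changes were 5.57 ± 0.59 and 5.01 ± 0.52 on the log2 scale. FCGR1A and FCGR3A, receptors for the Fc part of IgG, were higher by 5.75 ± 0.53 and 4.69 ± 0.42. SIGLEC1, TREM2, CLEC7A, STAB1, SIRPA, CD209 and FCER1G completed the higher genes. Not every receptor of the list was seen. LYVE1 had a UMI in 1, 2 and 0 high-share cells and MARCO in 0, 2 and 1, and AXL had none in any high-share cell, against a limit of 3 UMIs that makes 82.4, 10.4 and 4.93 CPM. MERTK, a receptor for engulfing dying cells, stood at 27.5, 86.7 and 62.4 CPM in high-share cells, under that limit in cattle 1, and was higher there by 3.74 ± 0.44.

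The share of single cells with a UMI was also counted. After thinning to 460 UMIs, TYROBP had a UMI in 29.1%, 18.7% and 25.7% of high-share cells, against 0%, 0.138% and 0.128% of cells with at least 2 Sertoli genes, where 0 of 72 cells allows up to 4.17%. Without thinning the shares were 36.4%, 50.7% and 81.8%, in the order of library depth. TIMD4 had a UMI in 9.09%, 13.3% and 23.6% of thinned high-share cells, and FOLR2 in 50.9%, 29.1% and 32.4%. These shares count cells with a captured molecule at this depth, not cells that express the gene.

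**Figure D3:**
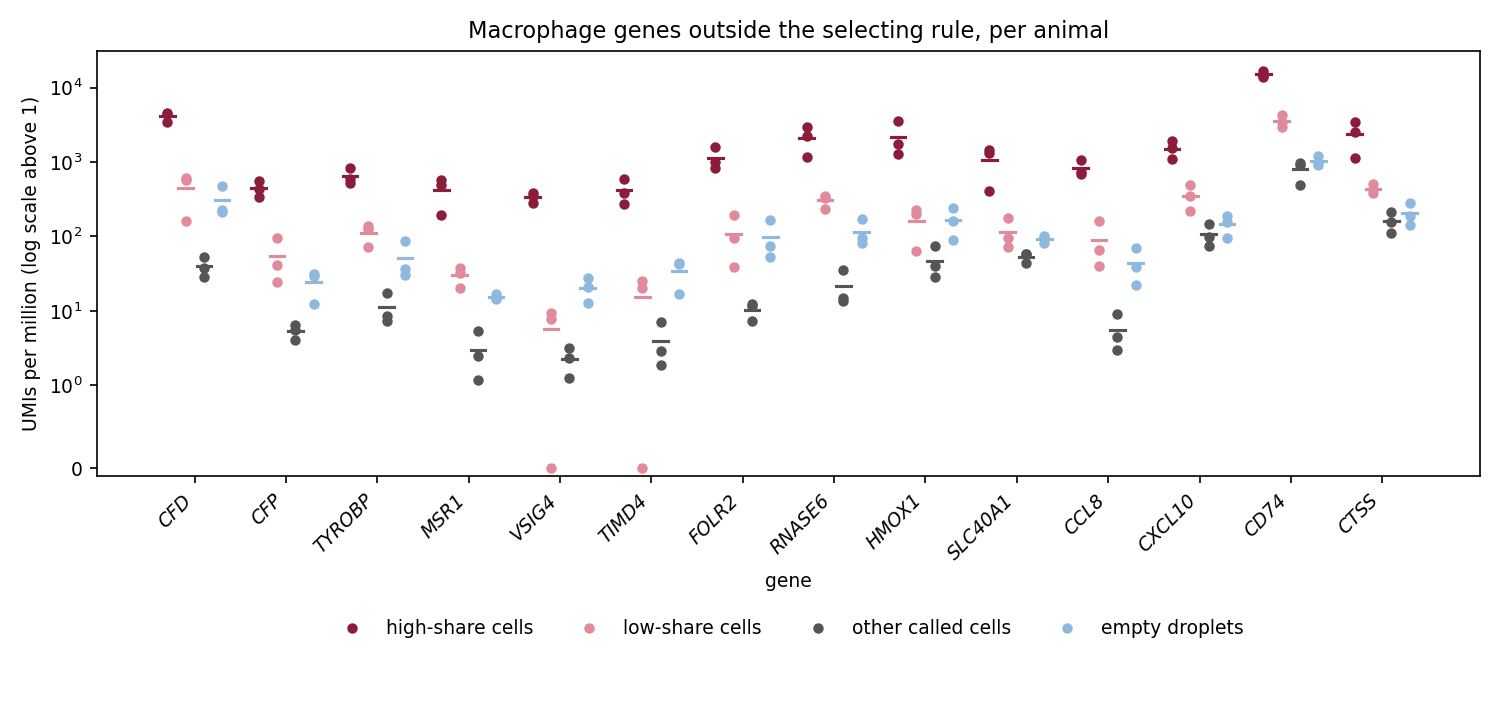
CPM (y axis, logarithmic above 1) of 14 genes outside the rule in high-share cells, low-share cells, other called cells and empty droplets, with 1 point per animal (n = 3 cattle) and a bar at the mean. High-share cells lie above other called cells in every animal for all 14 genes, and low-share cells lie between them for 12 genes, with VSIG4 and TIMD4 at 0 in the low-share cells of 1 animal.

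Resident and trophic genes gave 6 higher and 1 lower of 19 tested, with a median of 0.93. FOLR2, a folate receptor of resident tissue macrophages, stood at 929, 450.2 and 203 CPM in the selected cells and 12.3, 7.24 and 11.7 CPM in other called cells, beside 166, 53.6 and 73.4 CPM in empty droplets (log2 fold change 5.31 ± 0.53, edgeR adjusted p = 0.000104). RNASE6, an antimicrobial ribonuclease, stood at 781, 1231 and 696 CPM against 13.5, 15.0 and 35.3 CPM. MS4A7 and F13A1, a membrane protein of macrophages and the coagulation factor XIII A chain, were higher by 4.93 ± 0.53 and 3.66 ± 0.53. SPP1, the matrix and signalling protein osteopontin, varied widely between the animals. It stood at 398, 77.8 and 1.96 CPM in the selected cells (27, 47 and 7 UMIs), with the highest level in cattle 1 and the lowest in cattle 3. In other called cells it stood at 3.81, 0.393 and 0.158 CPM. The log2 fold change of SPP1 was 6.80 ± 1.56 (edgeR adjusted p = 0.039), and it did not pass with drop sets of any 1 gene (4.50, edgeR adjusted p = 0.264) or with a minimum of 50 counts (edgeR adjusted p = 0.0534). TIMP2, an inhibitor of matrix metalloproteinases, was lower, at 1282, 720.0 and 474 CPM against 7488, 2079 and 1985 CPM (log2 fold change −2.58 ± 0.54, edgeR adjusted p = 0.0234). In high-share cells IGF1, PDGFB and TGFBI were higher too, and IGF1, an insulin-like growth factor, stood at 54.9, 38.2 and 29.6 CPM against 6.74, 6.84 and 16.7 CPM. The level of IGF1 in cattle 1 lies under the limit of 3 UMIs (82.4 CPM).

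Of 16 tested genes of antigen presentation 6 were higher and none lower, with a median of 2.32, and with the animal as a block 11 were higher. CD74, the invariant chain that guides MHC class II, stood at 11011, 8324 and 4897 CPM in the selected cells, 16862, 13708 and 14497 CPM in high-share cells and 923, 975 and 489.6 CPM in other called cells (log2 fold change 3.06 ± 0.39, edgeR adjusted p = 0.000583). It had a UMI in 92.7%, 93.1% and 93.9% of thinned high-share cells, against 8 of 72 (cattle 1), 7.17% and 6.93% of the Sertoli-gated cells. BLA-DQB, an MHC class II beta chain, was higher by 3.42 ± 0.36, and CTSS, the cathepsin that trims CD74, by 2.53 ± 0.37. CTSS stood at 781, 1467 and 931 CPM against 111, 154 and 214 CPM. CIITA, the master activator of MHC class II genes, passed in high-share cells on 0, 1 and 5 UMIs there, under the limit of 3 UMIs in cattle 1 and 2. BOLA-DQA5, another class II chain, stood at 501, 11.6 and 0.560 CPM, which rests on cattle 1, and did not pass (log2 fold change 3.17 ± 2.02, edgeR adjusted p = 0.589) unless the animal was a block (edgeR adjusted p = 4.13e-11). MHC genes have near-identical copies and differ between animals, so reads of single BOLA genes may be split between copies. B2M, the light chain of MHC class I found on most cells, differed by 0.27 ± 0.29 in all selected cells and was higher by 1.12 ± 0.25 in the high-share cells (edgeR adjusted p = 0.0192).

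Lysosomal genes gave 6 higher of 25 tested, none lower and a median of 0.85, with 14 higher when the animal was a block and 16 in the high-share cells. CTSC, the protease that activates granule serine proteases, stood at 486, 477 and 319 CPM against 41.0, 20.2 and 30.2 CPM and was higher by 3.54 ± 0.38. CTSZ, LAPTM5, LIPA, GRN and LYZ were the other higher genes, and GRN, the precursor of granulins, stood at 295, 381 and 181 CPM against 67.4, 53.3 and 61.0 CPM. PSAP, the precursor of the saposins, and NPC2, which carries cholesterol out of lysosomes, passed in the high-share cells, by 1.92 ± 0.31 and 2.46 ± 0.32, while in all selected cells the edgeR adjusted p was 0.309 and 0.111, or 0.0061 and 3.72e-06 with the animal as a block. CTSD, a widely expressed cathepsin, did not pass in either, at 443 ± 47.4 CPM against 337 ± 21.5 CPM (SD, n = 3).

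Iron and heme genes gave 3 higher of 13 tested in all selected cells and 8 higher and 1 lower in high-share cells, with medians of 0.79 and 1.89. With the animal as a block 5 were higher and 2 lower in all selected cells. HMOX1, the heme oxygenase that releases iron from heme, stood at 722, 945 and 791 CPM in the selected cells, 1291, 1762 and 3536 CPM in high-share cells and 39.9, 28.4 and 73.2 CPM in other called cells, with the groups well apart (log2 fold change 3.89 ± 0.40, edgeR adjusted p = 0.000115). SLC40A1, the iron exporter ferroportin, stood at 265, 786 and 286 CPM against 43.4, 58.4 and 58.6 CPM and was higher by 2.90 ± 0.45. FTH1, the heavy chain of the iron store ferritin, held 35729, 35842 and 27063 CPM in high-share cells against 9071, 9309 and 6757 CPM, a log2 fold change of 1.89 ± 0.24 (edgeR adjusted p = 0.000481). In all selected cells FTH1 changed by 1.03 ± 0.35 (edgeR adjusted p = 0.223), and passed with the animal as a block (edgeR adjusted p = 8.06e-06). FTL, the light chain, was higher by 2.18 ± 0.29 in high-share cells, and in all selected cells with the animal as a block (edgeR adjusted p = 3.37e-06). TF, the plasma carrier transferrin, was lower in high-share cells, at 27.5, 0 and 8.21 CPM against 182, 41.6 and 58.9 CPM. Its levels in cattle 1 and 2 lie under the limit of 3 UMIs (82.4 and 10.4 CPM).

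Of 18 tested lipid and sterol genes 2 were higher, beside 1.83% of all tested genes, and none was lower, with a median of 0.26. With the animal as a block 4 were higher and 2 lower. The 2 higher genes were PLTP, a phospholipid transfer protein, and PPARG, a lipid-sensing nuclear receptor, and the high-share cells added ABCA1, FABP5, CH25H and TSPO. PLTP stood at 309.5, 278 and 129 CPM against 44.0, 19.6 and 45.4 CPM, and did not pass without cattle 2 (edgeR adjusted p = 0.133). APOE, the lipoprotein that macrophages of many tissues secrete, did not pass, at 1666, 621 and 413 CPM in the selected cells and 2705, 558 and 594 CPM in other called cells, with 5508, 954 and 748 CPM in empty droplets (log2 fold change −0.92 ± 0.62, edgeR adjusted p = 0.607; 0.0463 with the animal as a block). Cattle 1 held the highest APOE in all 3 classes of barcodes.

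Among macrophage transcription factors, SPI1, IRF5, TFEC and SPIC were higher of 16 tested and none was lower, with a median of 0.70. SPI1, the PU.1 factor that sets myeloid identity, stood at 162, 103 and 61.6 CPM against 3.81, 5.44 and 4.06 CPM (log2 fold change 4.19 ± 0.41, edgeR adjusted p = 0.000104). SPIC, which drives red pulp and bone marrow macrophages that recycle iron, stood at 0, 71.2 and 79.8 CPM in the selected cells, where 0 in cattle 1 allows up to 44.2 CPM, and at 0, 128 and 419 CPM in the high-share cells. It was higher by 4.93 ± 0.67 (edgeR adjusted p = 0.0011), with 0.293, 1.01 and 3.31 CPM in other called cells, and did not pass with drop sets of any 1 gene (edgeR adjusted p = 0.0510).

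Receptors for growth factors and homing gave 9 higher of 16 tested and none lower, with a median of 2.62. ADORA3, an adenosine receptor, stood at 59.0, 57.9 and 49.0 CPM against 2.05, 2.69 and 2.49 CPM, with little spread between the animals (log2 fold change 4.24 ± 0.37, edgeR adjusted p = 0.000104). P2RY13, a nucleotide receptor, was higher by 5.55 ± 0.56. The chemokine receptors CX3CR1, CCR1 and CXCR4 were higher, of which CXCR4, the receptor for CXCL12, was so by 2.16 ± 0.45 (edgeR adjusted p = 0.0231), and by 1.26 without cattle 2 (edgeR adjusted p = 0.562).

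Cytokines and chemokines gave the largest count of higher genes of the 15 lists, 14 of 20 tested, with 1 lower and a median of 2.84. CCL8 and CCL2, which attract monocytes, stood at 472, 361 and 214 CPM and at 339, 151 and 119 CPM in the selected cells, and at 4.40, 2.97 and 8.98 CPM and 5.86, 4.21 and 6.14 CPM in other called cells. Both were above the other cells in each animal, by 5.67 ± 0.49 and 4.82 ± 0.43 on the log2 scale (edgeR adjusted p = 0.000104 for each). CXCL10, an interferon-induced chemokine for T cells, stood at 752, 1159 and 443 CPM against 73.9, 148 and 98.8 CPM, and was higher by 2.67 ± 0.41. CXCL16, which is both chemokine and scavenger receptor, was higher by 2.98 ± 0.40, and IL18, an inflammasome cytokine, by 2.83 ± 0.47, though not past the threshold without cattle 2 (edgeR adjusted p = 0.0538). IL1B, an inflammatory cytokine, had a UMI in 2, 4 and 6 high-share cells and IL10, an anti-inflammatory one, in 0, 1 and 0. TNF passed in high-share cells alone, at 27.5, 17.3 and 19.7 CPM against 3.81, 2.47 and 3.31 CPM, with cattle 1 under the limit of 3 UMIs (82.4 CPM). LTB, a lymphotoxin chain of lymphocytes, was the lower gene, at 44.2, 19.9 and 11.8 CPM against 71.2, 65.6 and 78.5 CPM (log2 fold change −2.30 ± 0.43), part of which the drop set for lymphocytes fixes.

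Monocyte genes and genes of the phagocyte oxidase gave 5 higher of 14 tested and none lower, with a median of 1.25. The oxidase subunits CYBB and NCF1 were higher by 4.85 ± 0.45 and 3.93 ± 0.55, and CYBB stood at 44.2, 91.0 and 63.9 CPM against 1.17, 1.68 and 3.09 CPM. LYZ, the antibacterial lysozyme, stood at 133, 202 and 199.7 CPM against 12.3, 16.5 and 20.04 CPM. S100A12, a calgranulin of monocytes and granulocytes, had a UMI in 0, 1 and 3 high-share cells, so that its call rests on few cells. CD52, a surface glycoprotein abundant on lymphocytes, did not pass, at 531, 259.9 and 74.8 CPM in the selected cells against 779.6, 798 and 967 CPM (log2 fold change −1.97 ± 0.51, edgeR adjusted p = 0.0717), and was lower with the animal as a block (edgeR adjusted p = 7.5e-19).

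Pattern recognition genes gave 6 higher of 17 tested and none lower, with a median of 2.25, and 10 higher with the animal as a block. TLR2 and TLR4, receptors for bacterial lipoproteins and lipopolysaccharide, were higher by 4.23 ± 0.55 and 2.86 ± 0.51, and NLRP3, PYCARD, TMEM173 and CLEC4E completed the group. PYCARD, the inflammasome adaptor, stood at 162, 156 and 74.5 CPM against 25.5, 16.0 and 16.0 CPM, and did not pass without cattle 2 (edgeR adjusted p = 0.118). The high-share cells added TLR5, TLR6, TLR7, MYD88, NOD1 and NOD2, of 15 tested, while CLEC4E had too few counts to be tested there. Immediate early genes, which respond to stimulation and to tissue dissociation, gave 4 higher of 13 tested and none lower, with a median of 0.40. These were NFKBIA, DUSP1, ZFP36 and KLF6, and NFKBIA, the inhibitor of NF-kappaB, stood at 265, 455 and 229 CPM against 44.0, 52.0 and 57.3 CPM (log2 fold change 2.43 ± 0.36). Without cattle 2 neither NFKBIA nor KLF6 passed (edgeR adjusted p = 0.0668 and 0.267), and KLF6 also failed without cattle 3 (edgeR adjusted p = 0.0586) and with drop sets of any 1 gene. FOS passed in high-share cells alone, at 1291, 1488 and 2075 CPM against 578, 389.7 and 441 CPM, and JUN did not pass in either.

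Cell division genes gave no call in either direction among 18 tested in all selected cells, and 1 lower in the high-share cells. Over all tested genes 1.83% were higher and 0.343% lower, and 2.08% were lower in high-share cells, so these counts are near the overall shares. CENPF, a kinetochore protein of dividing cells, stood at 27.5, 6.94 and 3.29 CPM in high-share cells against 35.2, 35.6 and 39.5 CPM in other called cells (log2 fold change −2.64 ± 0.54, edgeR adjusted p = 0.0118). These high-share levels lie under the limit of 3 UMIs, which makes 82.4, 10.4 and 4.93 CPM, so the call rests on very few molecules. Without cattle 2 or without cattle 3 the high-share call was lost. In all selected cells CENPF stood at 59.0, 14.9 and 79.3 CPM, a change of 0.23 ± 0.44 in the other direction that did not pass (edgeR adjusted p = 0.915). At least 2 cell division genes were seen in 1 of 55, 2 of 203 and 0 of 148 thinned high-share cells, and in 2.97%, 2.04% and 1.78% of thinned other cells. Without thinning these shares were 7.27%, 7.88% and 12.8%, against 7.39%, 9.50% and 27.0%. The exact 95% binomial interval of the thinned share in high-share cells ran from 0.0460% to 9.72% in cattle 1 and from 0.120% to 3.51% in cattle 2. In cattle 3, 0 of 148 cells allows up to 2.46%, so a difference was not detectable after thinning in any of the 3 animals. Without thinning, the intervals in cattle 3 were 7.91% to 19.3% in high-share cells and 25.8% to 28.2% in other called cells, whose median UMI total was larger.

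Colony factor and retinoid genes, which testis cells around the macrophages are known to make, gave no higher gene among 11 tested. Over all tested genes 1.83% were higher, so this count is near the overall share. CSF1, the ligand of CSF1R, had no UMI in any high-share cell, and IL34, its other ligand, averaged 1.09 ± 1.90 CPM there and 5.75 ± 0.475 CPM in other called cells (SD, n = 3). ALDH1A1, which makes retinoic acid, was the only call among 11 colony factor and retinoid genes. With the animal as a block 2 genes of the list were lower, beside 3.59% of all tested genes. ALDH1A1 stood at 265, 295 and 168 CPM in the selected cells against 746, 627 and 764 CPM, a log2 fold change of −1.81 ± 0.33 (edgeR adjusted p = 0.00849). Without cattle 3 the edgeR adjusted p was 0.0513. Outside the lists, OTOS, named for a protein of the inner ear, was lower by 3.41 ± 0.53 log2 units, at 206, 113 and 136 CPM against 2287, 549 and 856 CPM. MSMO1, an enzyme of cholesterol synthesis, AQP8, a water channel, and ABHD11, a mitochondrial hydrolase, changed by −1.86 ± 0.43, −1.67 ± 0.32 and −1.49 ± 0.34. MSMO1 did not pass without cattle 1 (edgeR adjusted p = 0.0669), with library size alone, with a minimum of 50 counts or with drop sets of any 1 gene. AQP8 did not pass without cattle 2 or without cattle 3 (edgeR adjusted p = 0.0694 and 0.112), nor did ABHD11 (edgeR adjusted p = 0.169 and 0.0653), which also failed with library size alone and with the stricter drop sets. In high-share cells INSL3 and INHA, the Leydig hormone and the inhibin subunit of Sertoli cells, were lower by 3.06 ± 0.78 and 2.53 ± 0.42 log2 units, part of which the drop sets for these cells fix.

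**Figure D4:**
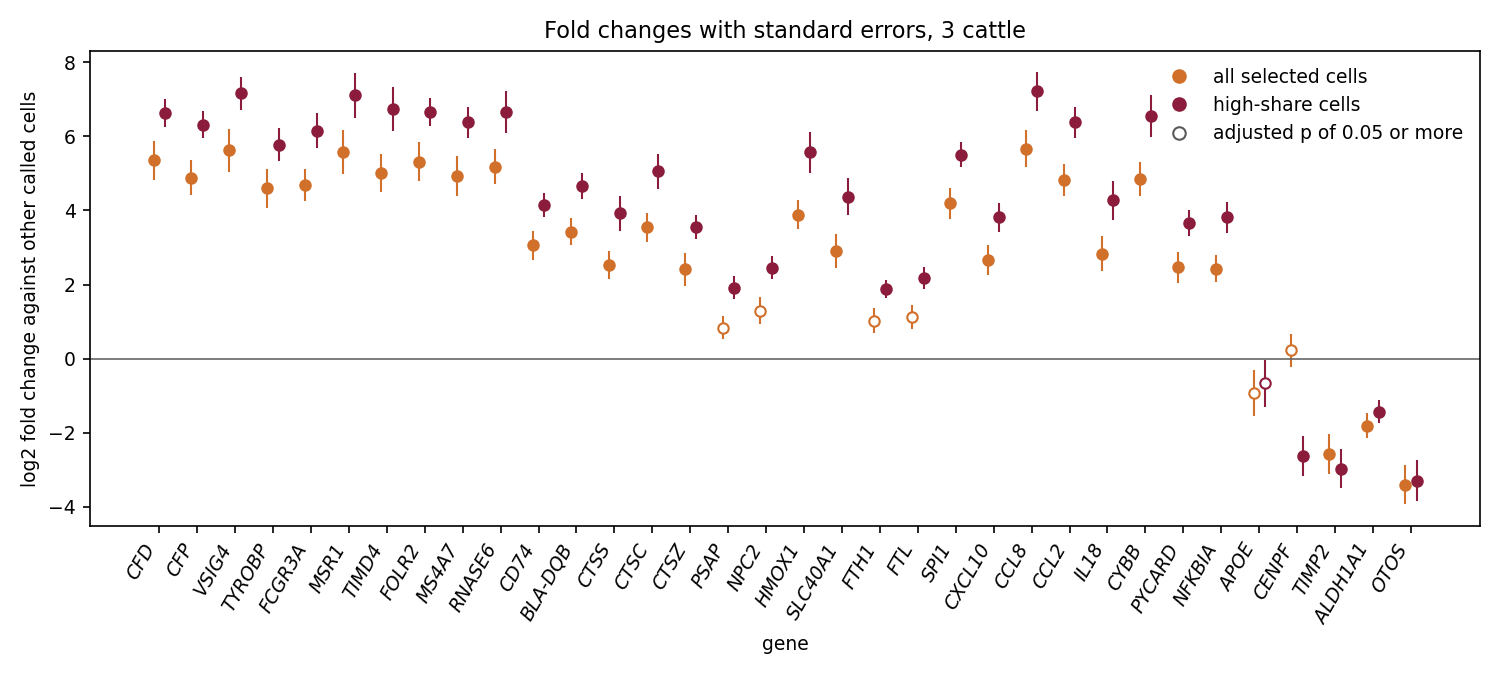
Log2 fold changes against other called cells (y axis, with standard errors, n = 3 cattle) of 34 genes in all selected cells (orange) and high-share cells (dark red), with open symbols where the edgeR adjusted p was 0.05 or more. FTH1, FTL, PSAP and NPC2 pass in the high-share cells alone, CENPF lies on opposite sides of 0, and TIMP2, ALDH1A1 and OTOS are lower in both. The levels of CENPF in high-share cells lie under the limit of 3 UMIs in each animal.

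T/NK-gated cells were the largest other immune class gated here, set apart by UMIs of at least 2 of CD3E, CD3D and NKG7. The class held 143, 732 and 846 cells and is called T and NK cells here. Any 2 of these genes include CD3E or CD3D, so a cell with NKG7 alone stayed outside the class. Against them 474 of 11398 tested genes were higher in the selected cells (4.16%) and 493 lower (4.33%), or 1723 (15.1%) and 1072 (9.41%) with the animal as a block. The split moved to 1692 higher and 357 lower with library size alone as the scaling, and to 174 and 325 with DESeq2, which differs in scaling, model and test. Without cattle 1, 2 and 3 in turn, 272, 133 and 149 genes were higher and 573, 230 and 146 lower. For high-share cells 720 of 9840 genes were higher (7.32%) and 603 lower (6.13%). Genes of antigen presentation were higher in 10 of 16, Fc and phagocytic receptors in 13 of 20 and lysosomal genes in 13 of 23 tested, with none lower. With the animal as a block 1 gene was lower in each of these lists. Other lists held lower genes too, among them monocyte genes with 6 higher and 3 lower of 12. Cytokines and chemokines had 9 higher and 2 lower of 20, and complement genes 7 and 1 of 16. CD74 stood at 551, 356 and 559 CPM in the T and NK cells and was higher in the selected cells by 3.67 ± 0.43 (edgeR adjusted p = 3.52e-07). CCL8 and MS4A7 were higher by 4.54 ± 0.52 and 4.51 ± 0.58, with MS4A7 at 0, 1.68 and 4.05 CPM in T and NK cells. SPP1, BOLA-DQA5 and BOLA-DQB showed larger changes of 6.54 ± 1.40, 5.41 ± 1.72 and 5.34 ± 1.44, and did not pass with DESeq2 or without cattle 1. Without cattle 1 the change of SPP1 was 6.51 (edgeR adjusted p = 0.0957), while those of BOLA-DQA5 and BOLA-DQB fell to 3.15 and 2.79 (edgeR adjusted p = 0.390 and 0.121). BOLA-DQA5 also failed without cattle 3 (4.64, edgeR adjusted p = 0.0833), and BOLA-DQB with a minimum of 50 counts (5.22, edgeR adjusted p = 0.0945). FCER1G, the Fc receptor gamma chain that NK cells share, stood at 425, 649.9 and 587 CPM in T and NK cells and did not pass (log2 fold change −0.37 ± 0.39, edgeR adjusted p = 0.622; 0.0336 with the animal as a block). CXCR4 differed by 0.03 ± 0.48.

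Among the lower genes with the largest changes, KLRD1, a receptor of NK cells, stood at 0, 0 and 1.68 CPM in the selected cells and 77.3, 140.1 and 223 CPM in the T and NK cells, a log2 fold change of −7.25 ± 0.65 (edgeR adjusted p = 6.19e-09). HCST, an adaptor of the NKG2D receptor, and IFNG, the interferon of T and NK cells, were lower by 6.67 ± 0.56 and 6.37 ± 0.56. CCL5 stood at 383, 200.3 and 48.2 CPM in the selected cells and at 6918, 7151 and 4306 CPM in T and NK cells. The rule removed cells with at least 2 lymphocyte genes, so part of the difference in such genes is set by the rule.

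The other myeloid class gated were dendritic-gated cells, taken as cells with a UMI of at least 2 of IRF8, PLD4, FLT3 and BCL11A and none of C1q. They numbered 13, 80 and 9, under the 10 cells in cattle 3 that a test was to need, and the comparison has no test. CD74 stood at 41186, 32425 and 14076 CPM in these cells, above the 16862, 13708 and 14497 CPM of the high-share cells in cattle 1 and 2. LYZ stood at 341, 715 and 1940.5 CPM, above the high-share cells in each animal. In the 9 dendritic-gated cells of cattle 3 the granulocyte markers summed to 536 CPM, led by S100A12 at 463 CPM, beside 0 and 21.0 CPM in cattle 1 and 2, and their part in the level of LYZ was not tested. CCL8, CCL2, TIMD4 and VSIG4 had no UMI in the dendritic-gated cells of any animal, where 3 UMIs make 205, 15.8 and 43.4 CPM. HMOX1 stood at 68.2, 189 and 57.9 CPM and RNASE6 at 0, 258 and 1115 CPM there. IRF8 itself was present in the high-share cells, as given above.

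**Figure D5:**
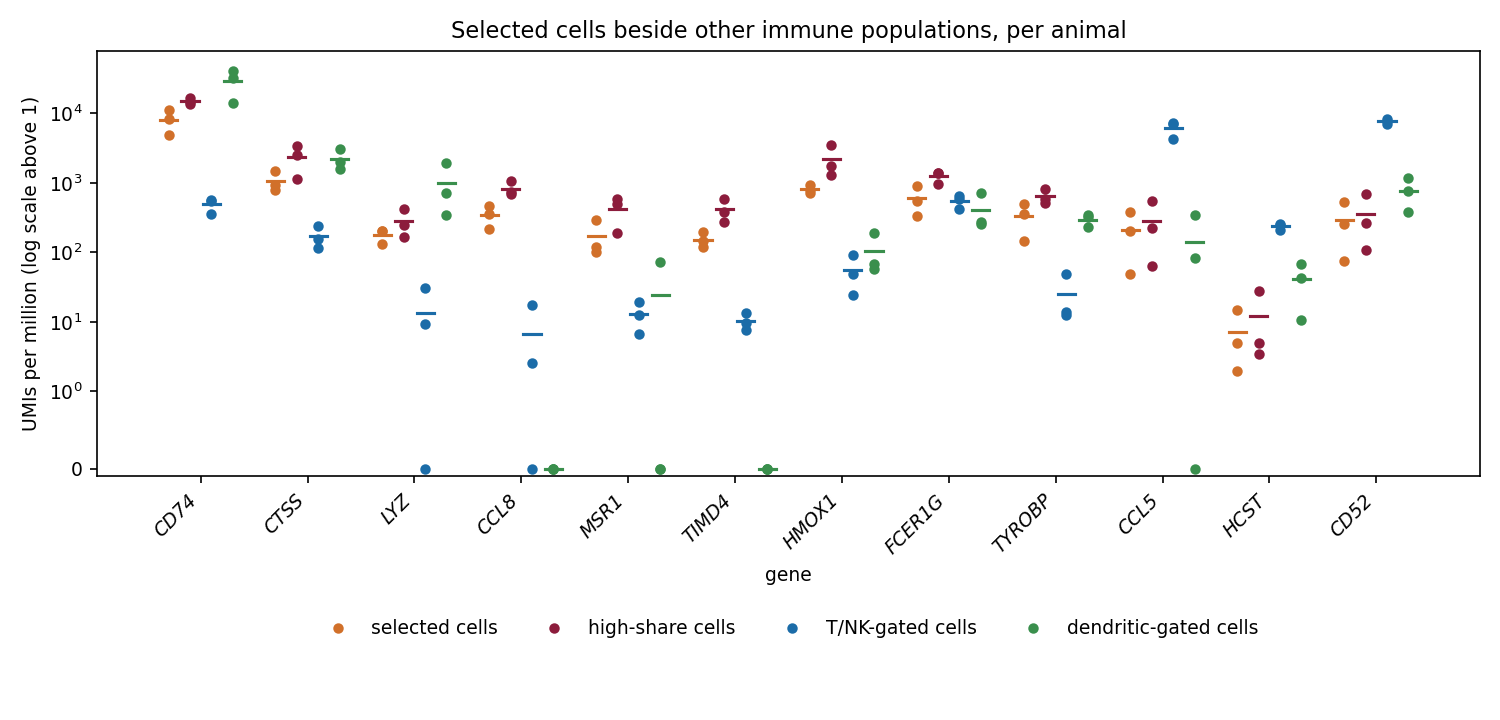
CPM (y axis, logarithmic above 1) of 12 genes in all selected cells, high-share cells, T/NK-gated cells and dendritic-gated cells, with 1 point per animal (n = 3 cattle) and a bar at the mean. CCL5, HCST and CD52 are highest in T/NK-gated cells, CD74 and LYZ have their highest means in dendritic-gated cells, and FCER1G overlaps between the classes.

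Pigs gave the comparison across species. The same rule kept 48, 44 and 340 pig cells, which are 1.48%, 1.12% and 14.9% of called cells, and 2.23%, 4.02% and 8.80% of called cells in cattle. The means were 5.02% ± 3.39 in cattle and 5.84% ± 7.87 in pig (SD, n = 3 each), with a two-sided exact permutation p of 1, where 3 against 3 cannot go below 0.1. High-share cells took 1.55%, 2.32% and 2.38% of called cells in cattle, 2.09% ± 0.463 on average, beside 2.08% ± 2.66 in pig. The limit was set on cattle cells and did not separate the cells of pig 2 and 3 by TYROBP, which stood at 2443 CPM in cells of pig 2 with a share of 3 to 10 per 1000 and at 2393 CPM in those with 10 to 30, and at 3216 and 3649 CPM in pig 3. The high share of all selected cells in cattle 3 therefore came with the low-share cells, since 2.38% of its called cells were high-share cells. Depth differed between the libraries, and the part of capture in these shares was not tested.

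The change between selected and other called cells differed between cattle and pig for 6 of 10533 genes in the edgeR interaction test, 1 of them higher in cattle (0.00949%) and 5 lower (0.0475%), with 530 at an unadjusted p under 0.05 and 14 past the threshold by DESeq2. With the animal as a block 32 were higher (0.304%) and 135 lower (1.28%), and with high-share cells 9 (0.0863%) and 26 (0.249%). FCGR1A, the high-affinity IgG receptor, had the larger change in cattle, by 4.30 ± 0.73 log2 units (edgeR adjusted p = 0.0203). With drop sets of any 1 gene, which leave selected cells with an NKG7 UMI among the other called cells, it was 1.75 and did not pass. Its level in the selected cells was 73.7, 147 and 50.7 CPM in cattle and 37.5, 84.3 and 26.6 CPM in pig, and in other called cells 0.879, 1.35 and 1.92 CPM against 27.1, 15.6 and 19.3 CPM. The other called cells of the pigs held 3, 34 and 68 cells that met the rule but for a C1q gene, with TYROBP at 6457, 2546 and 3130 CPM, and those of the cattle held none, and the part of these cells in the difference was not tested. None of the 6 genes passed when any 1 cattle library or that of pig 1 was left out, though all kept their direction. CCL5, a T and NK cell chemokine, differed by −5.99 ± 0.88 (edgeR adjusted p = 0.0133), with 648, 704 and 585 CPM in other called cells of cattle and 18.3, 22.7 and 64.5 CPM in those of pig. The selected cells of the pigs held 694, 569 and 128 CPM of CCL5, beside the levels given above for the selected cells of cattle. Of T/NK-gated cells there were 1721 among the called cattle cells and 1, 15 and 62 in the pigs, and their part in the difference was not tested. On simulated counts with a log2 difference of 2 this test found none of the changed genes, so a gene that did not pass is not shown to be alike in both species.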

How the data were processed

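Testicular cells of 3 cattle and 3 pigs were profiled with 10x Genomics v2 chemistry, 1 library per animal, in 1 sequencing lane. Alignment by the authors used Cell Ranger (2.1.0 per the labels, 3.0.2 in the headers of the pig matrices) and ARS-UCD1.2 or Sscrofa11.1, and they deposited raw UMI counts per gene and barcode without normalization. Cattle matrices hold 737280 barcodes each, and pig matrices only barcodes with at least 500 UMIs. In each species 2 libraries carry 1 testis number in the labels. Each was counted as 1 animal, since the study's methods state 3 separate males of each species. Pairs of cattle libraries shared 45, 23 and 71 called barcodes.

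A barcode was called as a cell when it held at least 10% of the total at the 99th percentile among the top 3000 barcodes, which gave 460, 972 and 2644 UMIs in cattle 1, 2 and 3. The drop sets removed 17, 66 and 300 cells, and the selected sums held 67844, 604156 and 3570811 UMIs. UMI counts were summed per animal and cell class, and genes reaching 10 counts in all sums together went into edgeR 4.0.16 under R 4.3.3 (TMM scaling, quasi-likelihood test, Benjamini-Hochberg adjustment at 0.05). DESeq2 1.42.0 was an alternative. The 18 genes of the rule were not tested. TMM shifted selected against other cells by 0.262 log2 units and against T and NK cells by 0.382, and log2 changes are relative to this. In the species test the shift was 0.386 over both species together, which is not the shift of the difference between them. The median of that difference over all tested genes was −0.123 with TMM and 0.376 with library size alone. Both sums of an animal come from 1 library, and their deviations from the class means correlated (r = 0.332, 0.282 and 0.284), so the paired alternative took the animal as replicate block. On simulated counts with changes of 2 log2 units, the edgeR test recovered 34.3% of changed genes with 5.56% false calls over 14044 genes for other called cells, and 41.1% with 6.02% over 11132 genes for T and NK cells. The simulated counts were independent, with the same dispersion for all genes and no animal effect. These rates therefore need not hold for the correlated sums of the data.

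Exact binomial and Poisson 95% intervals and the limit of 3 counts cover counting error only. Up to 5 genes of highest level were to be named from each of 15 lists, with the largest changes of each comparison at 100 CPM or more. Other list members, genes of the high-share cells and genes of few UMIs were named after their values had been seen. The rule, the lists and the limit of 10 per 1000 were chosen with earlier results of these data known. No sequences are shown, since no cattle genome was used here.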

Additional observations from a re-analysis of the deposited data

Results flagged for a closer look

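For 6 genes the change between selected and other called cells differed between cattle and pig in the edgeR interaction test over 12 sums. The difference on the log2 scale, cattle minus pig, was −5.99 for CCL5, −5.35 for GIMAP4, −6.67 for GIMAP8, −4.84 for HCST, −3.51 for ALDH3B1 and 4.30 for FCGR1A, with edgeR adjusted p-values from 0.0133 to 0.0348. GIMAP4, a GTPase of lymphocytes, stood at 44.2, 26.5 and 7.56 CPM in the selected cells of cattle and 150, 173 and 179 CPM in those of pig, and at 38.4, 58.8 and 80.3 CPM against 11.3, 7.54 and 41.7 CPM in other called cells. GIMAP8, of the same family, had UMIs in the selected cells of 1 of 3 cattle and of all 3 pigs. HCST, an adaptor of NK receptors, stood at 14.7, 4.97 and 1.96 CPM in cattle and 18.8, 37.9 and 46.0 CPM in pig. ALDH3B1, an aldehyde dehydrogenase, stood in the selected cells at 29.5, 19.9 and 26.0 CPM in cattle and 18.8, 25.3 and 13.9 CPM in pig, and in the other cells at 28.1, 18.9 and 18.0 CPM against 1.58, 1.38 and 2.73 CPM. None of the 6 kept an adjusted p under 0.05 when any 1 cattle library was left out, though all kept their direction. CCL5 changed by −6.38, −6.13 and −5.48 without cattle 1, 2 and 3, and FCGR1A by 4.33, 3.46 and 4.99. ALDH3B1 also failed with a minimum of 1 count and without pig 2 or pig 3, and FCGR1A without pig 3 (edgeR adjusted p = 0.0532). With drop sets of any 1 gene FCGR1A (1.75), ALDH3B1 and GIMAP8 did not pass. With library size alone as the scaling FCGR1A kept it and the other 5 did not. All 6 passed with high-share cells in place of all selected cells.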

How the results depend on the processing

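Counts of calls moved with the choice of cells and with the fit, and few single genes changed direction. Against all other called cells (262 higher, 49 lower), 616 genes were higher and 513 lower with the animal as a replicate block, 104 were higher with drop sets of any 1 gene, 466 higher and 114 lower with at least 5 UMIs over 4 keep genes, and 722 and 293 with high-share cells, or 1190 and 1228 with these and the block. Library size alone gave 28 lower and a minimum of 1 count 94 lower. Leaving out 1 animal gave 102 to 331 higher and 33 to 150 lower, and among high-share cells 365 to 945 higher and 43 to 531 lower (154 without cattle 3). Among all selected cells the fewest higher genes were called without cattle 2, and among high-share cells without cattle 3. Against T and NK cells (474 higher, 493 lower), library size alone gave 1692 higher, DESeq2 174 higher and 325 lower, a minimum of 50 counts 276 higher, the block 1723 and 1072, high-share cells 720 higher, these with the block 1046 and 1133, and leaving out 1 animal 133 to 272 higher and 146 to 573 lower. For the difference between species (1 higher, 5 lower), DESeq2 gave 8 higher, a minimum of 1 count 3, the block 32 higher and 135 lower, the stricter drop sets 0 higher, the stricter keep rule 7 higher, high-share cells 9 and 26, these with the block 79 and 169, library size alone 0 lower, and leaving out 1 animal 0 to 3 higher and 0 to 13 lower. The share of selected cells, cattle minus pig, changed sign from −0.828 percentage points to 0.301 after thinning, 2.05 with a minimum of 500 UMIs and 0.00374 for high-share cells. CENPF turned from 0.23 to −2.64 in high-share cells, −2.70 with the block and −2.94 without cattle 1, on levels under the limit of 3 UMIs in each animal. Among high-share cells without cattle 2 or without cattle 3, its call was lost. CYP27A1 turned from −0.10 to 0.94 in high-share cells with the block and 1.14 without cattle 1. Of the 82 genes named in the first comparison, 12 lost their call with the stricter drop sets (CTSZ, PLTP, SPIC, IFNGR1, CXCR4, IL18, SPP1, NCF1, PYCARD, KLF6, MSMO1 and ABHD11) and 9 without cattle 2 (PLTP, IFNGR1, CXCR4, IL18, PYCARD, KLF6, NFKBIA, AQP8 and ABHD11), all of which kept their sign. The causes were not tested. The stricter drop sets kept 32, 148 and 156 cattle cells and left the removed cells among the other called cells. NKG7, a gene of these sets, had a UMI in 40%, 46.8% and 74.3% of high-share cells. Many high-share cells therefore counted as other called cells in this setting. High-share cells were an alternative chosen after seeing the data. The alternatives of the dendritic comparison were not run, since it has no test. The block added the calls of TSPO and CYBA (edgeR adjusted p = 0.0416 and 3.24e-07) to those given beside the results, and changed no other call of the genes picked by the naming rule.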

Other observations

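Several genes outside the lists also stood above the other called cells. BRN, a pancreatic-type ribonuclease, stood at 5631, 4064 and 1581 CPM in the selected cells, 8953, 7341 and 7470.4 CPM in high-share cells and 90.3, 38.5 and 61.6 CPM in other called cells, a log2 fold change of 5.60 ± 0.53 (edgeR adjusted p = 0.000104). It has near-identical paralogs in cattle, and reads may be split between them. RARRES1, a retinoic acid responsive membrane protein, stood at 678, 299.6 and 63.6 CPM against 23.7, 7.63 and 7.53 CPM, and was higher by 4.34 ± 0.75 (edgeR adjusted p = 0.00569). Among genes picked for their level in the high-share cells, PLA2G2D3, a secreted phospholipase, stood at 1016, 1041 and 1347 CPM against 12.9, 16.3 and 16.4 CPM. CD200R1, an inhibitory receptor of myeloid cells, stood at 82.4, 121 and 102 CPM against 0.293, 0.617 and 1.32 CPM. CLEC12A, a C-type lectin of myeloid cells, stood at 54.9, 191 and 393 CPM against 1.47, 2.41 and 5.36 CPM, with cattle 1 under the limit of 3 UMIs. FCNB, a ficolin of the lectin pathway, stood at 220, 302 and 214 CPM against 6.74, 1.91 and 2.90 CPM.

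Per cell, CD74 and the MHC class II genes varied widely among the high-share cells. Their median was 37.6, 28.6 and 31.8 per 1000 UMIs in cattle 1, 2 and 3, and the 5th to 95th percentile ran from 2.52 to 74.2, 4.48 to 59.9 and 6.39 to 75.2 per 1000.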
